A study of Mus musculus with 8 samples.

Results

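The COPI coat, the Golgi matrix and the retrograde route between the Golgi and the endoplasmic reticulum (ER) were examined through 30 genes, chosen by name for their place in this route, of the 24413 gene symbols counted in the series. All 30 have a row in each library, and 27 passed the filter on low counts. The cells were plasmablasts, antibody-secreting cells that still divide, raised from spleen B220+ B cells of C57BL/6J mice with lipopolysaccharide (LPS) at 25 µg/ml over 4 days and sorted as CD22-CD138+. The Jagn1 knockout group (Jagn1fl/fl Mb1Cre+, 4 libraries) carried floxed Jagn1 alleles together with Mb1-Cre, a recombinase driven from the B cell gene Cd79a. The control group (Jagn1fl/fl, 4 libraries) carried the same floxed alleles, and its labels list no Cre, so an effect of Cre itself and the loss of Jagn1 cannot be told apart. The labels name 4 mice for each genotype, and no age of the animals is stated in the labels. Jagn1 encodes a membrane protein of the ER that has been linked to COPI, and the comparison asks whether the transcripts of the COPI route differ when it is lost.

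COPI is a coat of several subunits that buds vesicles from Golgi membranes and carries escaped ER proteins and recycling receptors back to the ER. The small GTPase ARF1, loaded with GTP by the exchange factor GBF1, brings the coat to the membrane, and ARF GTPase-activating proteins (ARFGAPs) release it. KDEL receptors catch soluble ER chaperones that end in KDEL or a like signal, the coat itself binds dilysine signals at the end of ER membrane proteins, and vesicles are received at the ER by a tether of NBAS, RINT1 and ZW10 with the SNAREs USE1, BNIP1 and syntaxin 18. Golgins and GRASP proteins hold Golgi stacks together. Antibody-secreting cells run a heavy traffic of secretory protein through this route.

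Both kinds of retrieval signal can be read in the coding sequences. The ends below are shown because they are what the coat and the KDEL receptors bind: Jagn1 itself ends in codons for a dilysine signal of the KKXX type, the 3 most abundant chaperones shown end in KDEL, and the other 4 belong to the KDEL-type genes that differed between the groups. Each line gives the last 30 coding bases with the stop codon (GENCODE M21, GRCm38), 5′ to 3′, and capitals mark the 4 codons of the signal.
Jagn1 (chromosome 6): accagcacacaggagAAGAAACGGAAAtga
Hspa5 (chromosome 2): gaggatacatcagaaAAAGATGAGTTGtag
Hsp90b1 (chromosome 10): aaggaatctacagagAAGGATGAATTGtaa
Calr (chromosome 8): tcccctggccaagccAAGGATGAGCTGtag
Serpinh1 (chromosome 7): aagggagacaagatgCGAGATGAGTTGtag
Sdf2l1 (chromosome 16): gatctctccacgggtCACGATGAACTCtga
Txndc5 (chromosome 13): gttctgcgccaggcaAAGGATGAACTAtag
Colgalt1 (chromosome 8): ctggacagcactgccCGTGATGAGCTTtga
The codons of Hspa5, Hsp90b1, Calr and Txndc5 spell KDEL with different bases, Serpinh1 and Colgalt1 end in RDEL, and Sdf2l1 ends in HDEL.

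Promoters of the members were searched for 4 response elements of ER stress and cyclic AMP signalling, a search chosen after the expression values were seen. RefSeq (GRCm38.p6) gives a window from 250 bases before to 50 after the start site for 27 of the 30 members, all but Arcn1, Arf6 and Kdelr2. The core of the unfolded protein response element (UPRE, TGACGTGG, searched on both strands), which the factor XBP1 can bind, was present in 5 of the 27 members (18.5%), against 193 of 27025 genes with a window (0.714%) and 86 of 7645 tested genes with a window (1.12%). Those 5 were Copb1, Copb2, Arf1, Gbf1 and Kdelr3, and the match lies near the start site in each. Each line gives the gene's own strand, 5′ to 3′, and capitals mark the core or its reverse complement CCACGTCA.
Copb1 chr7:114254675-114254734 (minus strand): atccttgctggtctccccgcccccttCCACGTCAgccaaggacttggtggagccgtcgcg
Copb2 chr9:98563698-98563757 (plus strand): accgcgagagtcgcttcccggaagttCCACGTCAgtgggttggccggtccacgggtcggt
Arf1 chr11:59228213-59228272 (minus strand): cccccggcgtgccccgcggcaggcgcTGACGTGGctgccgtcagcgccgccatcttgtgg
Gbf1 chr19:46152520-46152579 (plus strand): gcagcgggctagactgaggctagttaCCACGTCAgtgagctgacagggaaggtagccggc
Kdelr3 chr15:79516352-79516411 (plus strand): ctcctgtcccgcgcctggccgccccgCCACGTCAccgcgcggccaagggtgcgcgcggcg
Of the other elements, the ER stress response element (ERSE: CCAAT, then 9 bases of any kind, then CCACG, which can overlap a UPRE core) and the ATF4 element (TGATGCAAT) were in 0 of the 27 members, against 0.137% and 0.222% of genes with a window, and the cyclic AMP response element (CRE, TGACGTCA) was in Cope alone (3.7% of the 27), against 2.03% of genes with a window and 4.02% of tested genes with a window. A match says only that these letters are in the window.

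The libraries held 7162089 to 8262474 counts in the knockout and 5882912 to 10066661 in the control, so the floor of 3 counts stood at 0.298 to 0.510 CPM, the unit used below, which scales a count to the library's total adjusted by its TMM factor. Jagn1 (chr6:113442569-113448229, plus strand, 2 exons) was nearly absent from knockout replicates 1 to 4, with 2, 1, 1 and 1 counts, against 19, 35, 16 and 99 counts in control replicates 1 to 4 (log2 fold change -4.81 ± 0.73 SE, edgeR adjusted p = 0.000818). Of 9904 genes tested, 5.74% passed an adjusted p of 0.05. Control replicates 1 and 4 stood apart, deviating from the control mean by 0.594 and 0.581 log2 units (root mean square over genes), where the remaining 6 libraries deviated from their own group's by 0.324 to 0.432. Plasmablast markers were abundant (11 genes, 21432 to 27461 CPM summed in the knockout and 27535 to 34668 in the control, most of it Mzb1), but 5 of the 11 were lower in the knockout past the threshold and none was higher. These were Sdc1, Jchain, Slamf7, Tnfrsf17 and Cd93, with no overlap between the groups in any of them (edgeR adjusted p = 0.00635, 0.0122, 0.000553, 0.0105 and 4.35e-05). Sdc1, which encodes the sort marker CD138, averaged 19.6 ± 2.72 CPM in the knockout and 41.2 ± 10.8 CPM in the control (SD, n = 4 each). The part of these differences in the levels of the members was not tested. Cd22, which the sort selects against, averaged 6.77 ± 2.06 and 6.83 ± 3.42 CPM in the knockout and the control. B cell markers (9 genes) summed to 844 to 962 CPM in the knockout and 908 to 1174 in the control. Among them Cd79a, from which Mb1-Cre is driven, was lower in the knockout, at 148 ± 23.5 CPM against 304 ± 77.6 CPM in the control, without overlap (log2 fold change -1.04 ± 0.19, edgeR adjusted p = 0.00313). Dendritic cell markers (5 genes) summed to 63.0 to 96.6 CPM in the knockout and 65.6 to 108 CPM in the control, nearly all of it Xcr1 (71.4 ± 13.3 and 81.1 ± 20.5 CPM), while Itgax, Clec9a, Flt3 and Siglech were each at or under 4.21 CPM in every library. T cell markers (7 genes) summed to 10.4 to 13.6 CPM in the knockout and 13.5 to 20.9 in the control, and stroma markers (4 genes) to 20.7 to 23.6 and 18.5 to 29.5 CPM. Myeloid (9 genes), NK (4 genes) and erythroid and platelet (7 genes) markers stayed at or under 8.06 CPM summed in every library, and Lyz2, S100a8, S100a9, Ncr1, Hba-a1 and Hbb-bs were at 0 in all 8.

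Among the transcripts of the COPI route, Use1, a SNARE of the ER tether, was higher in knockout than in control plasmablasts. It was the only one of 27 tested members past the threshold (3.7%, against 5.74% of all tested genes in either direction and 2.54% in the higher direction; edgeR), and no member was lower, as 3.19% of all tested genes were. At an unadjusted p under 0.05 there were 4 members, Use1, Nbas, Arfgap3 and Gorasp1, all with a higher fitted level in the knockout, and over all genes 1785 of 9904. The median log2 fold change was 0.04 over the members and -0.01 over all tested genes. A fitted value above 0 was found in 15 of the 27 members and in 4827 of all 9904 tested genes. The members were measured closely enough to bound most of them: the 95% interval of the fold change lay within 2-fold either way for 26 of 27, all but Gorasp1, and within 1.5-fold for 16. Over all tested genes it lay within 2-fold for 5960 of 9904. In these bulk samples, fewer cells of a type and less RNA per cell cannot be told apart.

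**Figure D1:**
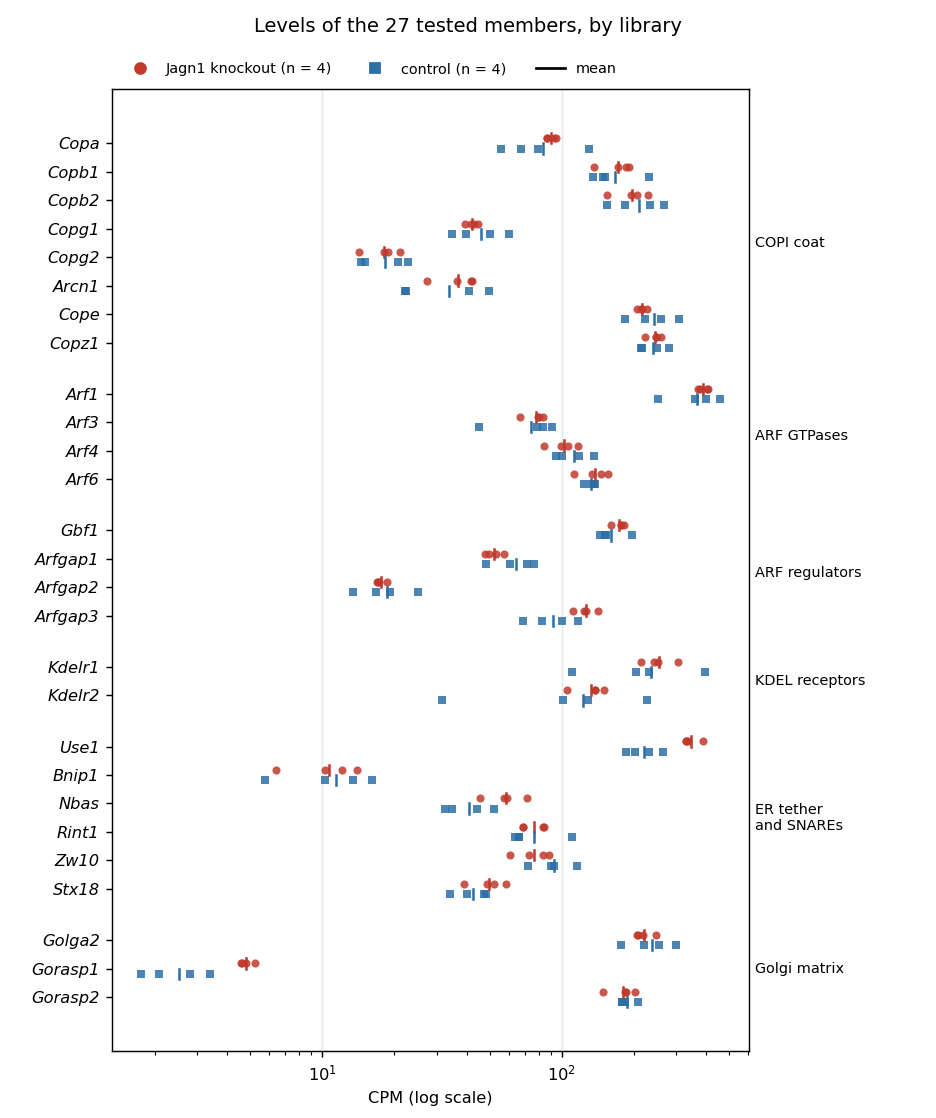
Level of each of the 27 tested members in each library, in CPM on a log axis, grouped by role; circles are knockout libraries, squares control libraries and vertical ticks group means. The knockout circles of Use1 and Gorasp1 lie clear of the control squares, and for most other members the control squares spread more widely than the knockout circles.

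Of the coat itself, none of the 8 tested subunit genes passed the threshold (0 of 8 at an unadjusted p under 0.05 as well; DESeq2 and limma-voom also called 0), and their log2 fold changes ran from -0.17 for Cope to 0.13 for Arcn1, with a median of 0.008. Copa, the alpha subunit that helps form the outer cage, stood at 86.7, 87.0, 94.8 and 92.8 CPM in knockout replicates 1 to 4 and at 55.5, 67.4, 79.7 and 130.3 CPM in control replicates 1 to 4. The 4 knockout libraries were nearly level and lay between the third and the highest control library. The log2 fold change of Copa was 0.12 ± 0.22 (SE, edgeR adjusted p = 0.847; 95% interval -0.35 to 0.58).

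The epsilon subunit Cope, a partner of Copa in the cage, had 214, 228, 216 and 206 CPM in the knockout and 309, 259, 222 and 184 CPM in the control. Here control replicate 1 was the highest library and control replicate 4 the lowest, the opposite of Copa, and the groups overlapped. The log2 fold change was -0.17 ± 0.16 (edgeR adjusted p = 0.637). The beta prime subunit Copb2, which binds dilysine signals in cargo as Copa does, averaged 196 ± 31.6 CPM in the knockout and 210 ± 50.8 CPM in the control.

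Of the inner, adaptor-like layer, Copb1 (beta) averaged 171 ± 24.8 CPM in the knockout and 167 ± 44.3 CPM in the control, and Copz1 (zeta) 244 ± 15 and 240 ± 31.1 CPM. Arcn1 (delta) averaged 36.9 ± 6.87 CPM in the knockout and 33.9 ± 13.8 CPM in the control. For the gamma subunits, which exist as a pair of paralogs, Copg1 averaged 42.2 ± 2.33 CPM in the knockout and 46.1 ± 11.2 CPM in the control, and Copg2 18.1 ± 2.88 and 18.2 ± 4.08 CPM (SD, n = 4 each throughout). Copg1 was the more abundant gamma gene in all 8 libraries. The zeta paralog Copz2 was under the filter, with 15 counts over the 4 knockout libraries and 11 over the 4 control libraries (rate ratio 1.38, exact 95% interval 0.594 to 3.33, counting error only). Summed over the 8 tested subunits the coat stood at 1015 ± 65.9 CPM in the knockout and 1041 ± 81.7 CPM in the control, and since the kit counts a tag per transcript end the sum weights each subunit by transcript number and not by length.

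**Figure D2:**
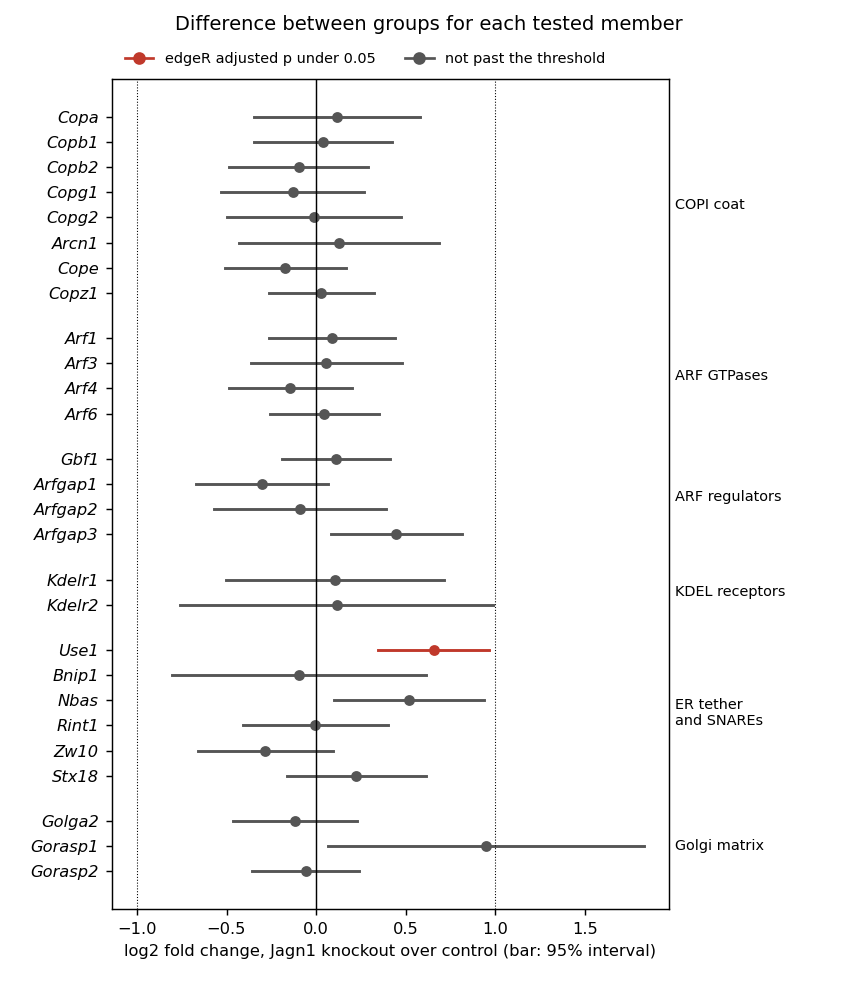
Fitted log2 fold change of knockout over control for each tested member, with its 95% interval (edgeR); dotted lines mark a 2-fold difference either way. Use1 is the only point past an adjusted p of 0.05, the intervals of Nbas, Arfgap3 and Gorasp1 also lie above 0, and only the interval of Gorasp1 reaches beyond 2-fold.

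ARF GTPases did not differ past the threshold either (0 of 4 tested, and 0 at an unadjusted p under 0.05; DESeq2 and limma-voom called 0), and all 4 intervals lay within 1.5-fold. Arf1, the GTPase that recruits the coat and the most abundant member, had 405, 406, 379 and 369 CPM in the knockout and 251.0, 359, 400 and 457 CPM in the control. Control replicate 1 was low and control replicate 4 high, with the knockout libraries between them. The log2 fold change was 0.09 ± 0.17 (edgeR adjusted p = 0.848). Arf3, a close relative of Arf1 at the Golgi, averaged 77.7 ± 7.25 CPM in the knockout and 74.6 ± 20.4 CPM in the control, and Arf4, which works with Arf1 in the early secretory pathway, 102 ± 13.4 and 112 ± 18.7 CPM. Arf6, which acts at the plasma membrane and endosomes, averaged 137 ± 19.1 CPM in the knockout and 133 ± 6.07 CPM in the control. Arf5 was barely detected and not tested: it gave 2, 7, 5 and 6 counts in the knockout and 2, 0, 0 and 2 in the control, a rate ratio of 5.07 (exact 95% interval 1.70 to 20.4, counting error only). Its groups overlapped, and it did not pass the filter on low counts.

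Among the regulators of ARF, the exchange factor gene Gbf1 averaged 174 ± 8.97 CPM in the knockout and 161 ± 23.4 CPM in the control (log2 fold change 0.11 ± 0.14, edgeR adjusted p = 0.756). The 3 ARFGAP genes of the coat cycle did not share a direction. Arfgap3, whose protein is recruited by coatomer, had 126, 111, 124 and 141 CPM in the knockout and 68.8, 82.3, 100.3 and 117 CPM in the control. Of the knockout libraries, 3 lay above every control library, and replicate 2 fell just under control replicate 4. The log2 fold change was 0.45 ± 0.17 (95% interval 0.08 to 0.81), with an adjusted p of 0.169 in edgeR and of 0.0309 without control replicate 4. Arfgap1, whose protein senses membrane curvature, averaged 52.1 ± 4.25 CPM in the knockout and 64.3 ± 12.5 CPM in the control (log2 fold change -0.30 ± 0.17, edgeR adjusted p = 0.392). Arfgap2 averaged 17.5 ± 0.783 CPM in the knockout and 18.6 ± 4.92 CPM in the control (log2 fold change -0.09 ± 0.23).

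KDEL receptor genes had the widest spread between control libraries of any role. Kdelr1 had 214, 252, 243 and 306 CPM in knockout replicates 1 to 4 and 110, 232, 205 and 397 CPM in control replicates 1 to 4. Kdelr2 had 138, 137, 106 and 150 CPM in the knockout and 31.6, 101, 129 and 228 CPM in the control. For both receptors control replicate 1 was the lowest and control replicate 4 the highest of all 8 libraries, and the knockout libraries lay between them. The highest library was 1.43 times the lowest for Kdelr1 in the knockout and 3.61 times in the control, and for Kdelr2 the ratios were 1.42 in the knockout and 7.2 in the control. Their log2 fold changes were 0.10 ± 0.28 and 0.11 ± 0.40 (edgeR adjusted p = 0.903 and 0.927), and both fitted values turned to lower in the knockout without control replicate 1, at -0.13 and -0.20. The intervals, -0.50 to 0.71 for Kdelr1 and -0.76 to 0.99 for Kdelr2, leave room for differences of up to nearly 2-fold in Kdelr2. Kdelr3 was under the filter, with 7, 8, 11 and 7 counts in the knockout and 0, 4, 3 and 16 counts in the control (rate ratio 1.46, exact 95% interval 0.83 to 2.60, counting error only).

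**Figure D3:**
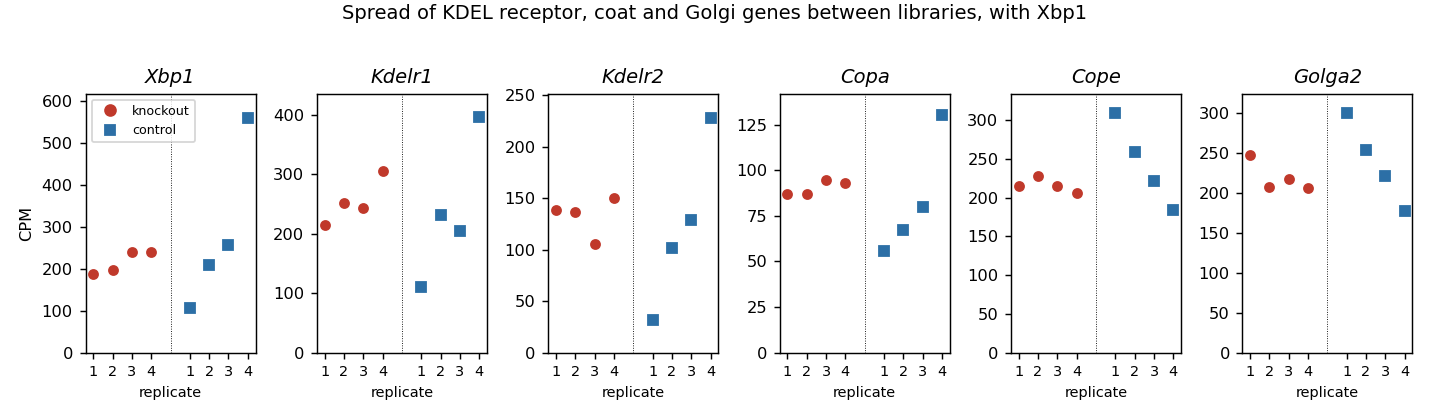
Level in each library, in CPM, of Xbp1 and of 5 members chosen after their values were seen, with knockout replicates left and control replicates right of the dotted line. Xbp1, Kdelr1, Kdelr2 and Copa are lowest in control replicate 1 and highest in control replicate 4, Cope and Golga2 the other way round, and the knockout libraries lie closer together.

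Control replicates 1 and 4 were also the extremes of the control for other members, in both directions and whatever the size of the spread. Of the 27 tested members, 9 were lowest in control replicate 1 and highest in control replicate 4 among the control libraries (Copa, Copb2, Arf1, Arf3, Arf6, Arfgap3, Kdelr1, Kdelr2 and Zw10), an arrangement found in 19.3% of all tested genes. Another 4 (Arcn1, Cope, Copz1 and Golga2) had the opposite arrangement, found in 18.5% of all tested genes. The ratio of the highest to the lowest library was larger in the control than in the knockout for 24 of the 27 members (88.9%), against 71.5% of all tested genes with a ratio, and its median over the members was 1.27 in the knockout and 1.70 in the control. Xbp1, shown here after its values were seen, was also lowest in control replicate 1 and highest in control replicate 4. It had 186, 196, 240 and 240 CPM in the knockout and 106, 210, 256 and 559 CPM in the control (log2 fold change -0.39 ± 0.37, edgeR adjusted p = 0.643). Counts of Xbp1 transcripts do not measure the activity of the XBP1 protein, and a link between Xbp1 and the receptors was not tested. Kdelr1 has no UPRE core in its window, and Kdelr2 has no window. Among the members with a UPRE core and enough counts, Copb2 and Arf1 were lowest in control replicate 1 and highest in control replicate 4, while Copb1 and Gbf1 were highest in control replicate 1 (232 and 196 CPM, against 134 to 152 and 145 to 152 CPM in control replicates 2 to 4). The part of these libraries in the levels of the receptors was not tested beyond leaving the libraries out.

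At the ER end of the route, the tether and its SNAREs held the clearest difference. Use1 (chr8:71366848-71369732, plus strand, GRCm38, 8 exons) had 331, 390, 329 and 338 CPM in knockout replicates 1 to 4 and 185, 201, 264 and 230 CPM in control replicates 1 to 4. Every knockout library lay above every control library. The rise was 1.57-fold, or on the log2 scale 0.65 ± 0.15 (SE, 95% interval 0.35 to 0.96, edgeR adjusted p = 0.0134). The call was lost without either of 2 libraries: the adjusted p was 0.0755 without knockout replicate 2 and 0.0613 without control replicate 2, at log2 fold changes of 0.60 and 0.61, and under 0.05 in the other 16 of 18 alternatives. The last 500 exonic bases of Use1, where 3′ tags fall, are not shared with exons of another gene.

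The partners of Use1 did not rise with it past the threshold. Nbas, the large scaffold of the tether, had 71.6, 57.4, 59.2 and 45.6 CPM in the knockout and 52.0, 44.3, 32.5 and 34.7 CPM in the control. The groups overlapped through knockout replicate 4 and control replicate 1. Its log2 fold change was 0.52 ± 0.20 (95% interval 0.10 to 0.93), with an adjusted p of 0.162 in edgeR, 0.0358 with limma-voom and sample weights and 0.0341 in edgeR without control replicate 1. Zw10, a tether subunit that also serves at kinetochores, averaged 76.3 ± 12.2 CPM in the knockout and 92.8 ± 17.9 CPM in the control (log2 fold change -0.28 ± 0.18, edgeR adjusted p = 0.44). Rint1, the third tether subunit, averaged 76.5 ± 8.79 CPM in the knockout and 76.7 ± 22.4 CPM in the control, at -0.005 ± 0.19 on the log2 scale, with control replicate 1 at 110 CPM and the other control libraries at 64.0 to 66.4 CPM. Of the other SNAREs, Stx18 averaged 49.6 ± 8.01 CPM in the knockout and 42.5 ± 6.70 CPM in the control, and Bnip1 10.7 ± 3.22 and 11.4 ± 4.45 CPM. The 6 genes together summed to 591 to 647 CPM in the knockout and 466 to 512 CPM in the control, and Use1 alone averaged 347 CPM of the knockout sum and 220 CPM of the control sum.

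**Figure D4:**
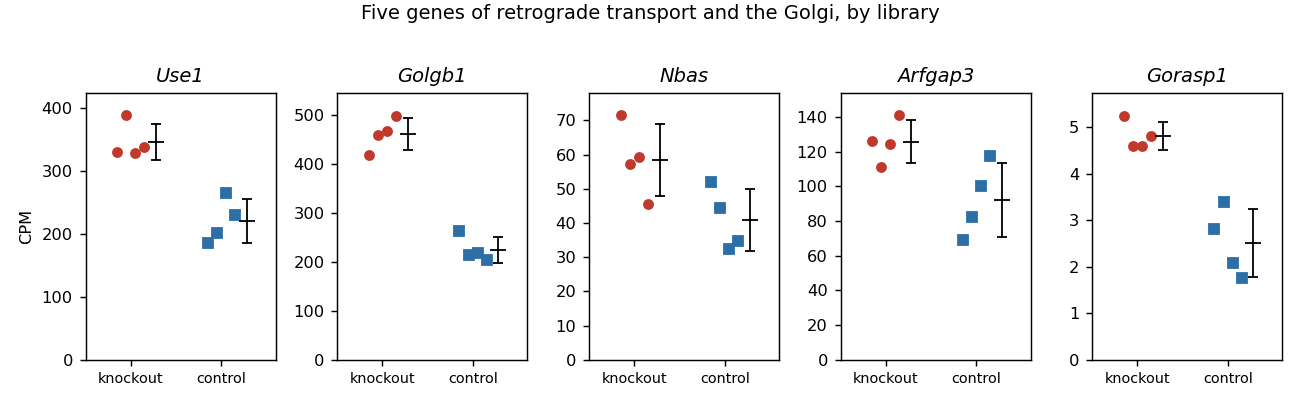
Level in each library, in CPM, of Use1, the golgin Golgb1 and the members Nbas, Arfgap3 and Gorasp1, with the group mean and SD as bars beside the points (n = 4 each). Use1, Golgb1 and Gorasp1 do not overlap between knockout and control; Nbas and Arfgap3 do.

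The Golgi matrix members did not pass the threshold (0 of 3, with Gorasp1 at an unadjusted p under 0.05; DESeq2 and limma-voom called 0). Gorasp1, which encodes the stacking protein GRASP65, was the least abundant tested member, with 5.24, 4.60, 4.59 and 4.81 CPM in the knockout and 2.81, 3.38, 2.09 and 1.75 CPM in the control. The groups did not overlap, which among the members was true of Use1 and Gorasp1 only (2 of 27, both higher in the knockout, against 6.45% of all tested genes with every knockout library above every control library, 6.64% with every knockout library below, and 13.1% in either direction). The log2 fold change was 0.95 ± 0.41 (95% interval 0.06 to 1.83), with an edgeR adjusted p of 0.234. Gorasp1 rested on 15 to 40 counts per library, and its last 500 exonic bases lie wholly opposite exons of Wdr48. Copg2 (opposite Mest), Arfgap2 (opposite 1110051M20Rik) and Stx18 (opposite Gm42858 and Nsg1) share their ends in the same way, and since the sources used here do not say whether counting used strand, reads of these 4 genes and of their partners cannot be told apart with certainty. Golga2, which encodes the cis-Golgi golgin GM130, averaged 220 ± 19.0 CPM in the knockout and 238 ± 51.8 CPM in the control (log2 fold change -0.12 ± 0.16). Gorasp2 (GRASP55) averaged 180 ± 22.5 CPM in the knockout and 187 ± 14.5 CPM in the control (log2 fold change -0.06 ± 0.14).

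Beyond the members, 73 other genes of ER-Golgi and Golgi transport were read from the same fit, of which 70 were tested and 1 passed the threshold (1.43%, against 5.74% of all tested genes). That gene was Golgb1 (chr16:36875140-36933085, plus strand, 21 exons), which encodes giantin, a long golgin anchored in the Golgi membrane that helps to capture COPI vesicles. It had 417, 459, 466 and 498 CPM in the knockout and 263, 213, 218 and 203 CPM in the control. Every knockout library lay well above every control library. The rise was 2.05-fold, or on the log2 scale 1.04 ± 0.14 (95% interval 0.75 to 1.33, edgeR adjusted p = 0.00028), and Golgb1 passed the threshold in all 18 alternatives. Parts of its exons overlap unconfirmed transcripts on the same strand (Gm49599 and Gm49600), though not in the last 500 exonic bases.

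In the golgin list, chosen by name, 11 of 12 tested genes had a fitted value above 0, against 4827 of all 9904 tested genes. Only 3 of the 12 had an unadjusted p under 0.05 (edgeR). The list was drawn up with earlier results of these data known. It leaves out the golgin gene Golga2, which was placed among the members and had a fitted log2 fold change of -0.12. The median log2 fold change of the list was 0.24, and Golgb1 was its 1 call. Golga4, a golgin of the trans-Golgi, averaged 351 ± 51.0 CPM in the knockout and 241 ± 58.5 CPM in the control (log2 fold change 0.54 ± 0.17, edgeR adjusted p = 0.0854), and passed with limma-voom, with no filter on low counts, and when control replicate 1, alone or with control replicate 4, was left out. The 10 ER-Golgi SNAREs and SM proteins gave 0 calls and 1 unadjusted p under 0.05, that of Bet1, a SNARE of vesicle fusion at the cis-Golgi. Bet1 averaged 77.4 ± 14.9 CPM in the knockout and 49.6 ± 9.46 CPM in the control (log2 fold change 0.64 ± 0.19, edgeR adjusted p = 0.0628), and it passed with DESeq2, with limma-voom, with no filter on low counts, and when knockout replicate 4 or control replicate 4 (alone or with control replicate 1) was left out. Golga4 and Bet1 were named after their values were seen. The COG complex, which tethers vesicles within the Golgi, gave 0 calls among 7 tested subunits (1 at an unadjusted p under 0.05), with a median of 0.07. Other ARF and ARL regulators gave 0 of 20 (2 unadjusted; median -0.07), and retrieval receptors and COPI partners such as Rer1 and Surf4 gave 0 of 21 (1 unadjusted; median 0.09). DESeq2 and limma-voom also called 0 in these last 3 groups, while edgeR called Rab6a and Tmed2 without control replicate 4, Erp44 without control replicate 1 and Acap2 without both. Rab6a, Tmed2, Erp44 and Acap2 were named after their values were seen.

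The soluble clients of the KDEL receptors were found by their coding sequence, without regard to expression. Of 21698 coding genes, 29 end in codons for KDEL, HDEL, RDEL or QDEL; 22 of them were tested, and 1 was higher and 3 were lower in the knockout (18.2%, against 5.74% of all tested genes). The median log2 fold change over the 22 was -0.05. Serpinh1, the collagen chaperone HSP47, had 14.9, 24.3, 21.4 and 21.0 CPM in the knockout and 2.11, 3.87, 3.2 and 7.30 CPM in the control. All knockout libraries were higher, by 2.28 ± 0.34 on the log2 scale (edgeR adjusted p = 0.000792).

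Of the 3 that fell, Sdf2l1, a cofactor of the BiP chaperone system, had 91.0, 94.2, 115 and 98.0 CPM in the knockout and 198, 165, 187 and 168 CPM in the control. All knockout libraries were lower, at a log2 fold change of -0.85 ± 0.14 (SE, edgeR adjusted p = 0.00159). Txndc5, a disulfide isomerase that plasma cells make in quantity, averaged 259 ± 44.2 CPM in the knockout and 419 ± 86.7 CPM in the control (log2 fold change -0.70 ± 0.17, edgeR adjusted p = 0.0248). Colgalt1, a collagen galactosyltransferase, averaged 64.1 ± 2.75 CPM in the knockout and 97.4 ± 14.1 CPM in the control (log2 fold change -0.60 ± 0.15, edgeR adjusted p = 0.028). The groups of both did not overlap, yet both calls were lost when any 1 of several libraries was left out. Leaving out each library, the log2 fold change ran from -0.80 to -0.57 for Txndc5 and from -0.69 to -0.51 for Colgalt1. Without knockout replicate 1, 2 or 4 or control replicate 3 the adjusted p of Txndc5 was 0.0559 to 0.126. That of Colgalt1 was 0.0682 to 0.118 without any 1 of the 4 knockout replicates or without control replicate 2 or 3, and 0.0567 with replicate number as a block. Exons of Unc13a lie opposite 495 of the last 500 exonic bases of Colgalt1, and other exons lie opposite 224 of those of Txndc5.

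The most abundant KDEL chaperones were not among the calls. Hspa5, the central ER chaperone BiP, had 14960, 17209, 16236 and 13968 CPM in the knockout and 14764, 11389, 14844 and 12716 CPM in the control. The groups overlapped and the log2 fold change was 0.22 ± 0.13 (edgeR adjusted p = 0.438). Hsp90b1 (GRP94) averaged 6564 ± 816 CPM in the knockout and 6749 ± 1029 CPM in the control (log2 fold change -0.04, edgeR adjusted p = 0.929). Calr (calreticulin) averaged 4168 ± 191 CPM in the knockout and 5187 ± 2245 CPM in the control, where control replicate 1 stood at 8476 CPM (log2 fold change -0.32, edgeR adjusted p = 0.497). These chaperones, named after their values were seen, thus outnumbered Kdelr1 and Kdelr2 transcripts in both groups: the 2 receptors together averaged 386 ± 50.1 CPM in the knockout and 358 ± 199 CPM in the control.

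**Figure D5:**
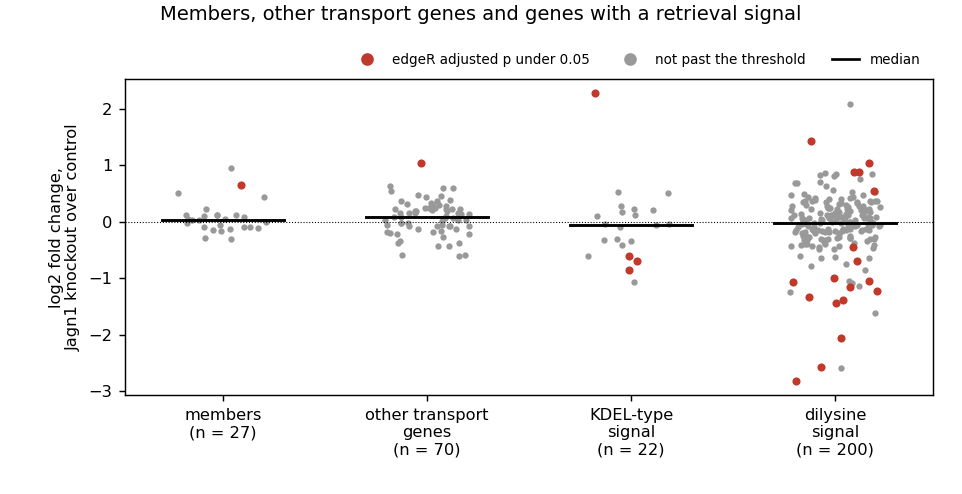
Log2 fold change of knockout over control for the tested members, the other transport genes and the genes ending in a KDEL-type or a dilysine signal, with Jagn1 itself left out; filled red points passed an adjusted p of 0.05 in edgeR and bars are medians. The medians of all 4 lists lie near 0, and the called points of the dilysine list lie mostly below 0.

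Genes that end in codons for a dilysine signal (KKXX or KXKXX) numbered 385 of 21698 coding genes, and 201 were tested. Of these 5 were higher and 14 lower in the knockout (9.45%, against 5.74% of all tested genes), Jagn1 included, and the median was -0.015. The search does not know topology, so the list also holds soluble proteins that the coat does not meet: 3 of the 14 lower genes are histone H2A genes (Hist3h2a, Hist1h2ai and Hist1h2ae, named after their values were seen). Those named below are among the called genes with the smallest p. The groups overlapped in none of them, but they were picked from the same comparison, so this is no separate support. Of the 201 tested genes, 13 had every knockout library above every control library and 19 had every one below. Over all 9904 tested genes these were 639 and 658.

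Msmo1, an enzyme of cholesterol synthesis, averaged 75.5 ± 9.56 CPM in the knockout and 150 ± 26.3 CPM in the control (log2 fold change -0.99 ± 0.16, edgeR adjusted p = 0.00155). Hsd17b12, an ER enzyme of fatty acid elongation, averaged 110 ± 8.11 CPM in the knockout and 229 ± 30.3 CPM in the control (-1.06 ± 0.14, adjusted p = 0.000362). Both fell. Tmem97, a sterol-regulated membrane protein, fell as well, to 81.1 ± 11.9 CPM in the knockout against 220 ± 18 CPM in the control (-1.44 ± 0.15, adjusted p = 4.35e-05). Atraid fell to 35.3 ± 4.91 CPM in the knockout against 92.1 ± 14.2 CPM in the control (adjusted p = 0.000175). Dhrs7, a short-chain dehydrogenase of the ER, rose, at 238 ± 24.9 CPM in the knockout and 116 ± 10.8 CPM in the control (1.04 ± 0.14, adjusted p = 0.000362). Egfl7, a secreted factor, averaged 1.22 ± 0.661 CPM in the knockout and 8.61 ± 4.03 CPM in the control (-2.82 ± 0.49, adjusted p = 0.00245), and it shares exons with Gm20532 on the same strand.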

How the data were processed

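Read counts per gene symbol were used from 8 libraries, 4 of Jagn1 knockout and 4 of control plasmablasts, grouped by the labels' titles and genotypes. The deposited counts are whole numbers, not normalized, from QuantSeq 3′ FWD libraries of 500 ng RNA, per the labels' protocols. The submitters' processing notes name the mm10 build and the tools HTSeq 0.6.1, TopHat2 2.1.1, SAMtools 1.3.1 and BWA 0.7.12, but no role for any tool. The sources used here give neither annotation nor strand setting. Such a kit gives a tag per transcript end, so counts were not divided by length, and PCR copies may be included. All files list 24413 symbols, and 0 rows name no gene. Libraries of a group differed by more than sampling noise (chi-square per degree of freedom 6.6 to 94.2).

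Genes passing filterByExpr (minimum count 10, minimum total 15; 9904 genes) were scaled with TMM and tested with edgeR 4.0.16 in R 4.3.3 (robust quasi-likelihood F-test, two-sided, group as the only term, Benjamini-Hochberg over all genes, threshold 0.05). An SE is the fitted log2 fold change over the square root of F. Exact intervals of rate ratios cover counting error only. On simulated counts (9737 genes) the fit recovered 16.4% of 1.5-fold, 61.2% of 2-fold and 98.5% of 4-fold changes, with 7 of 124 calls false. Changes were planted only in genes above a minimum mean level, and the spread followed the trend with level, the same in both groups. DESeq2 1.42.0, limma-voom (limma 3.58.1), other scalings and filters, a replicate block and leaving out libraries were the alternatives.

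The 30 members and all gene lists were chosen with earlier results of these data known. All members and Jagn1 are named, and of each other list up to 8 genes past the threshold by smallest p. Cell type markers, genes that share exons with a named gene, and the examples Rer1 and Surf4 are named outside this rule. Any further name is marked as picked with its values in view. The values of 1 gene under this rule are not reported here. Retrieval signals were read from principal coding sequences of GENCODE M21 (GRCm38), used in place of a protein table. Promoters are RefSeq windows of GRCm38.p6.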

Additional observations from a re-analysis of the deposited data

Results flagged for a closer look

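Of 86 groups of 4 libraries examined for the named genes, 6 (6.98%) held a library whose gap to its nearest neighbour was above Dixon's 95% critical value, and chance gives about 1 in 20. Use1 stood at 389.8 CPM in knockout replicate 2, next to 337.8 CPM in the nearest other knockout library. Gbf1 stood at 195.5 CPM in control replicate 1, next to 152.2 CPM, and Rint1 at 110.3 CPM in the same library, next to 66.4 CPM. Jagn1 stood at 0.269 CPM in knockout replicate 1, next to 0.144 CPM, which is a difference of 1 read. Tmem97 stood at 63.5 CPM in knockout replicate 3, next to 85.2 CPM, and Dhrs7 at 201.4 CPM in knockout replicate 4, next to 246.7 CPM.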

How the results depend on the processing

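Calls depended on the tool and on single libraries more than on scaling, which shifted the median log2 fold change of all genes by -0.033 with library totals only and by less with the other scalings. Of the 14 named genes past the threshold, 11 kept their call in all 18 alternatives and 0 changed direction; Use1, Txndc5 and Colgalt1 lost it in some. Of the 26 named genes not past it, 18 changed direction in some alternative. All genes called numbered 568, against 858 with DESeq2, 1054 with limma-voom and sample weights, 901 without control replicates 1 and 4 together, and 270 to 892 leaving out each library. Members called numbered 1, against 2 with limma-voom and 0 to 2 leaving out each library. Other transport genes called numbered 1, against 2 with DESeq2, 3 with limma-voom, 3 with no filter, 4 without control replicates 1 and 4 together, and 1 to 4 leaving out each library. KDEL-type genes called numbered 4, and 2 to 6 leaving out each library. Dilysine genes called numbered 19, against 30 with limma-voom and 11 to 27 leaving out each library.

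Log2 fold changes that reversed ran from -0.20 for Kdelr2 to 0.23 for Rint1. With limma-voom they were 0.033 for Copg1, 0.012 for Copg2, 0.044 for Arfgap2 and 0.087 for Rint1. Without control replicates 1 and 4 together they were 0.18 for Copg1, -0.060 for Arf3, 0.062 for Arf4, 0.11 for Arfgap2, 0.23 for Rint1 and 0.017 for Gorasp2. Copz1 was at -0.0029 with library totals only, and Rint1 at 0.00020 with no filter. Leaving out each library, the ranges that crossed 0 were -0.036 to 0.41 for Copa, -0.050 to 0.24 for Copb1, -0.22 to 0.030 for Copb2, -0.24 to 0.021 for Copg1, -0.11 to 0.11 for Copg2, -0.045 to 0.38 for Arcn1, -0.034 to 0.11 for Copz1, -0.055 to 0.20 for Arf1, -0.12 to 0.16 for Arf3, -0.024 to 0.13 for Arf6, -0.21 to 0.083 for Arfgap2, -0.13 to 0.47 for Kdelr1, -0.20 to 0.60 for Kdelr2, -0.31 to 0.11 for Bnip1, -0.083 to 0.22 for Rint1, -0.25 to 0.016 for Golga2 and -0.12 to 0.026 for Gorasp2. The causes were not tested.

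Samples of the same replicate number did not deviate together (r from -0.003 to 0.066 over all genes), and not every sample correlated best with its own number. With the replicate number as a block, 509 genes, 1 member, 1 other transport gene, 3 KDEL-type and 16 dilysine genes were called, and Rint1 was at 0.027. A simulated 1.5-fold change was recovered in 16.4% of genes, so changes of that size can be missed at this depth and spread.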
